A study of Bombyx mori with 9 samples.

Results

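The gene *6pgl* of the mulberry silkworm, *Bombyx mori*, codes for 6-phosphogluconolactonase and is 1 of 16674 genes in the count table. It was chosen by its gene ID, as a gene of the pentose phosphate pathway whose counts were high in the strain LAT51 against both other strains. Its differences between LAT51 and the other strains are therefore given as a description, without a test. Only MO204 vs. DMMMSU119, a contrast the choice did not name, was tested. The levels of both strains did enter the choice, as both had to lie below LAT51, so that contrast is not wholly free of it.

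The pentose phosphate pathway branches from glycolysis at glucose 6-phosphate. Its oxidative steps make NADPH, the reducing power of lipid synthesis and of the glutathione and thioredoxin systems, and its later steps supply ribose 5-phosphate for nucleotides. 6-phosphogluconolactonase acts between the oxidative dehydrogenases, opening the lactone made by glucose-6-phosphate dehydrogenase into 6-phosphogluconate. In the fifth larval instar the silk gland no longer divides its cells but copies its DNA repeatedly and makes large amounts of fibroin and sericin.

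The study sequenced RNA from silk glands of larvae reared at different sites in the Philippines, to compare a cooler with a warmer rearing environment. Larvae were taken at day 3 of the fifth instar, with 1 larva behind each library and 3 libraries behind each strain. LAT51 (libraries 1, 2 and 4) was reared at CAR in Benguet, the cooler site, and MO204 (libraries 1, 3 and 4) and DMMMSU119 (libraries 0, 2 and 4) were reared at TCMO in Misamis Oriental, the warmer and more humid site. The rearing facilities classed LAT51 and MO204 as priority strains and DMMMSU119 as poorly performing, by hatching, larval mortality and pupation. Silk yield and quality did not enter that classification. Since no other strain from CAR was counted, site and strain cannot be told apart in any comparison with LAT51. No treatment or genetic change was applied to the larvae beyond strain and site.

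The libraries held 4527847 to 11641130 counts on genes. The 6 silk gland markers (fibroin heavy and light chain, P25 and the sericins 1 to 3) were counted in every strain and took 12.3% to 19.1% of the counts in LAT51, 14.5% to 19.6% in MO204 and 24.4% to 36.0% in DMMMSU119. These sums hide members that went opposite ways. Sericin 3 had 18, 46 and 57 counts in LAT51, 578, 508 and 134 in MO204 and 27516, 123509 and 102589 in DMMMSU119. Sericin 2 had 702674, 581132 and 290294 counts in LAT51 and 115928, 137889 and 114869 in DMMMSU119. TMM factors, which rescale each library so that most genes do not shift, were 0.421 to 0.591 in DMMMSU119 and 1.26 to 1.53 in the other strains. How *6pgl* in MO204 compares with DMMMSU119 depends on that rescaling, and values are given on several scales for this reason.

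In LAT51, *6pgl* had 260 counts in library 1, 216 in library 2 and 79 in library 4. In MO204 it had 22 counts in library 1 and 10 in each of libraries 3 and 4. In DMMMSU119 it had 6 counts in library 0, 5 in library 2 and 2 in library 4. The lowest LAT51 count was thus above the highest count of the other 6 libraries, although LAT51-4 was the shallowest library of all. Counting error alone gave 95% Poisson intervals of 229 to 294 counts for LAT51-1, 62.5 to 98.5 for LAT51-4, 13.8 to 33.3 for MO204-1 and 0.242 to 7.22 for DMMMSU119-4. Summed over the libraries of a strain, the gene had 555, 42 and 13 counts.

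After TMM normalization, *6pgl* reached 26.0 counts per 1000000 (CPM) in LAT51-1, 13.9 in LAT51-2 and 13.8 in LAT51-4. The MO204 libraries held 1.57, 1.63 and 1.09 CPM, and the DMMMSU119 libraries 1.68, 1.23 and 0.369 CPM. The strain means were 17.9 ± 6.97 CPM in LAT51, 1.43 ± 0.291 in MO204 and 1.09 ± 0.667 in DMMMSU119 (SD, n = 3 each). The LAT51 libraries all lay above the rest, and the lowest of them was 8.23 times the highest library from TCMO. In the order of levels, LAT51 came first, while MO204 and DMMMSU119 overlapped and could not be ordered beyond their spread. Every LAT51 library was above every other library for 320 of the 7610 genes tested (4.2%).

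**Figure D1:**
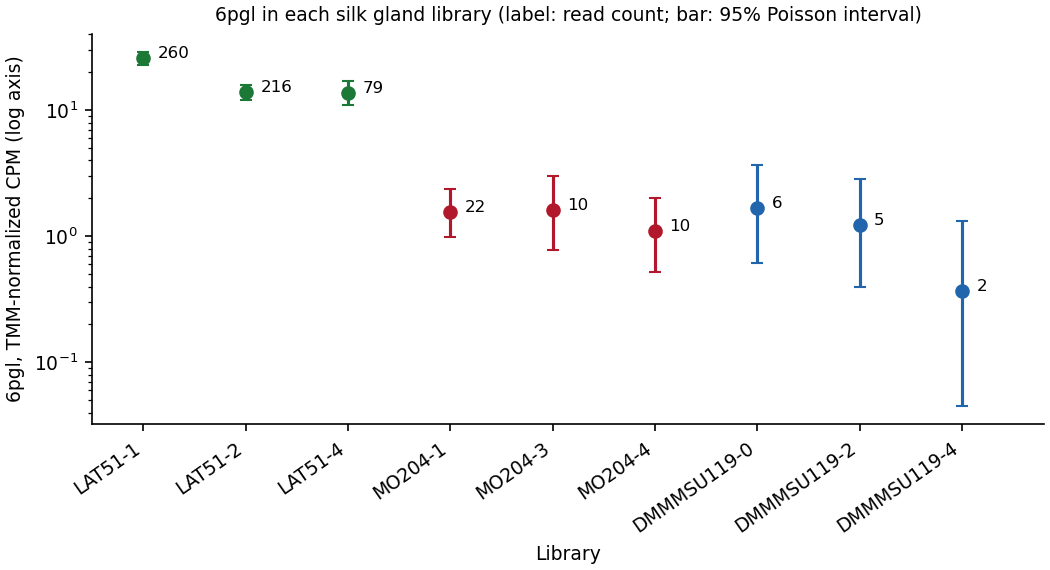
TMM-normalized CPM of *6pgl* (log axis) in each of the 9 silk gland libraries, with the read count as the label and the 95% Poisson interval of the count as the bar. The LAT51 libraries lie between 13.8 and 26.0 CPM and the 6 TCMO libraries between 0.369 and 1.68 CPM, with intervals that widen as the counts fall to 2.

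Within LAT51, library 1 stood above libraries 2 and 4. Its 95% counting interval of 22.9 to 29.3 CPM did not overlap that of LAT51-2, which was 12.1 to 15.9 CPM, so these libraries differed by more than counting error. Larva and library preparation cannot be told apart here. LAT51-2 and LAT51-4 differed by less than their counting intervals. The ratio of the highest to the lowest library was 1.88 in LAT51, 1.49 in MO204 and 4.56 in DMMMSU119, where the lowest value rests on 2 counts.

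Relative to MO204, *6pgl* in LAT51 had a log2 fold change (log2FC) of 3.64 (SE 0.487), or 12.4-fold. Relative to DMMMSU119 the log2FC was 4.08 (SE 0.530), or 16.9-fold. Both comparisons use the same LAT51 libraries. The values and their SE take no account of the choice of the gene for this difference and may overstate it. Ordered from the highest log2FC down, *6pgl* was in place 52 of 7610 genes against MO204 and in place 34 against DMMMSU119. In a model of location alone, which is how the study set up its contrast, its log2FC in CAR vs. TCMO was 3.81 (SE 0.413), in place 9, and 1.48% of genes were called. By edgeR's quasi-likelihood test with Benjamini-Hochberg adjustment and a threshold of 0.1, 1.51% of genes were higher in LAT51 than in MO204, 18.2% were higher in LAT51 than in DMMMSU119, and 57 genes (0.749%) were higher against both. These shares describe the whole table, and nothing is read from them about a gene that was chosen for this difference.

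The gene passed the filter on low counts, which asked for 1.44 CPM by library size in at least 3 libraries, through all 3 LAT51 and all 3 MO204 libraries. MO204-4 lay exactly at that limit with its 10 counts. No DMMMSU119 library reached it.

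Between the strains reared at TCMO, *6pgl* had a log2FC of 0.44 in MO204 vs. DMMMSU119 (SE 0.546, 95% interval -0.78 to 1.66). The adjusted p of the edgeR quasi-likelihood test was 0.573. A two-sided exact permutation test of log2 CPM, 3 libraries against 3, gave p = 0.7, where the smallest p this design allows is 0.1. In the same contrast 33% of the 7610 genes passed the threshold. The strains had 42 and 13 counts of *6pgl* behind them.

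That result turned on the scaling. By library size alone, *6pgl* reached 2.39, 2.16 and 1.44 CPM in the MO204 libraries and 0.990, 0.518 and 0.211 CPM in the DMMMSU119 libraries, and these did not overlap. The log2FC was then 1.86 (SE 0.583) with an edgeR adjusted p of 0.0178. Under that scaling, however, the median log2FC of all genes tested was 1.43, and 93.2% of the genes called were higher in MO204, so that most of the value was shared by the whole table. Scaled to the summed counts of 79 ribosomal protein genes, the log2FC was 1.94 (SE 0.677, adjusted p = 0.0286) and the median of all genes 1.49. Without DMMMSU119-4, the library with 2 counts, the TMM value was -0.0042 (adjusted p = 0.997).

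**Figure D2:**
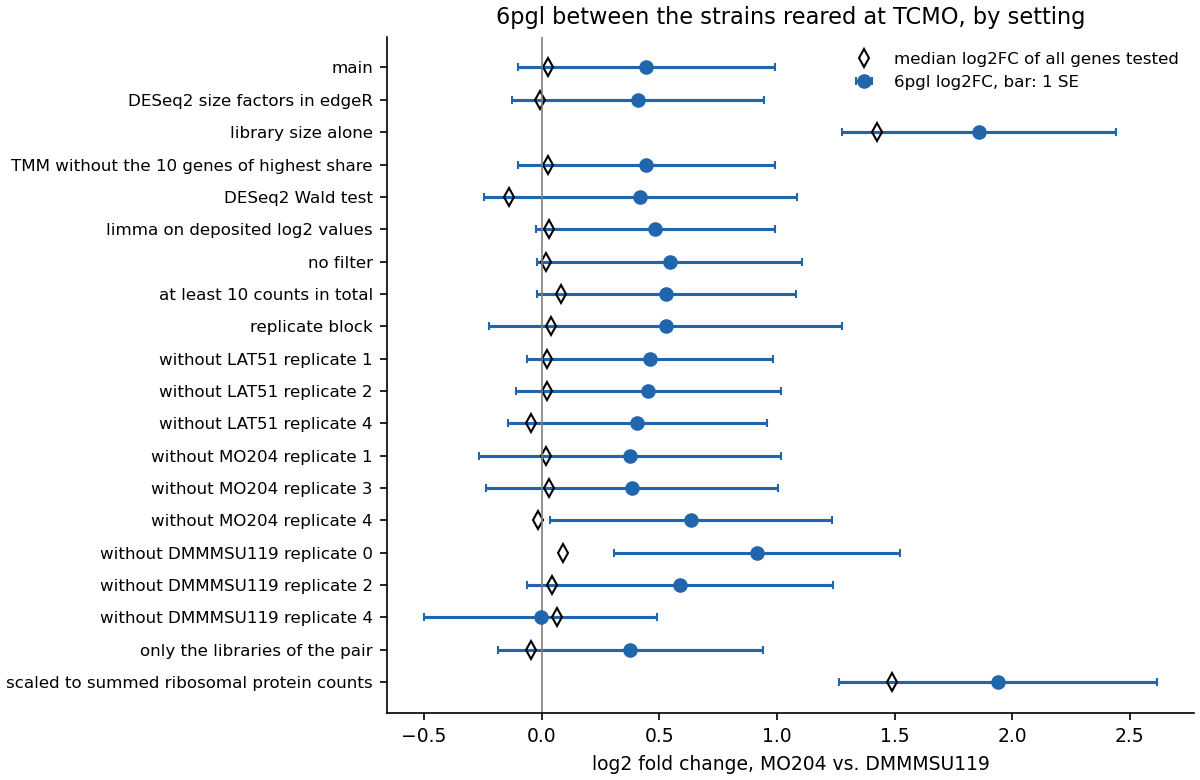
The log2FC of *6pgl* in MO204 vs. DMMMSU119 under each setting tried (filled points, bars of 1 SE), with the median log2FC of all genes under the same setting (open diamonds). It is 0.44 in the TMM fit (main), 1.86 by library size alone and 1.94 scaled to ribosomal protein counts, and under both of the latter the median of all genes moves with it to 1.43 and 1.49.

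The position of LAT51 did not turn on the scaling. By library size alone its libraries held 39.7, 18.6 and 17.4 CPM (25.2 ± 12.5, SD, n = 3), against 1.996 ± 0.494 in MO204 and 0.573 ± 0.392 in DMMMSU119. The lowest LAT51 library was then 7.31 times the highest library from TCMO, and 8.34 times on counts divided by DESeq2 size factors. On the log2 scale that the authors deposited, *6pgl* had values of 7.50, 6.67 and 6.68 in LAT51, 3.59, 3.63 and 3.12 in MO204 and 3.71, 3.31 and 1.88 in DMMMSU119.

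A ratio of counts within a library is free of any scaling between libraries. Per 1000 counts of *RpL32*, a ribosomal protein gene also known as rp49 and the reference of the study's qPCR, *6pgl* had 20.9, 7.20 and 6.21 counts in the LAT51 libraries. It had 1.41, 0.906 and 0.603 in the MO204 libraries and 0.417, 0.217 and 0.0970 in the DMMMSU119 libraries. On this measure the strains did not overlap at all, in the order LAT51, MO204, DMMMSU119. Per 1000 counts of *EF1a*, which codes for a translation elongation factor, the values were 1.504 to 3.46 in LAT51, 0.157 to 0.293 in MO204 and 0.0165 to 0.0968 in DMMMSU119. Per 1000000 counts of the 79 ribosomal protein genes together, they were 56.0 to 179, 6.07 to 11.4 and 0.893 to 4.24. The mean ratio in LAT51 was 10.4 to 11.8 times that in MO204 and 42.9 to 47.4 times that in DMMMSU119 over the 3 denominators, and in MO204 it was 3.66 to 4.55 times that in DMMMSU119. These ratios also move with the denominator, whose own level may differ between strains. Scaled to the summed ribosomal protein counts, the median log2FC of all genes in MO204 vs. DMMMSU119 was 1.49, against 1.94 for *6pgl*. Most of that value was thus shared by the whole table. In LAT51 vs. DMMMSU119 the median was also shifted upwards, but by far less than the 5.47 of *6pgl*. The shift of all genes relative to *RpL32* or *EF1a* alone was not tested.

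**Figure D3:**
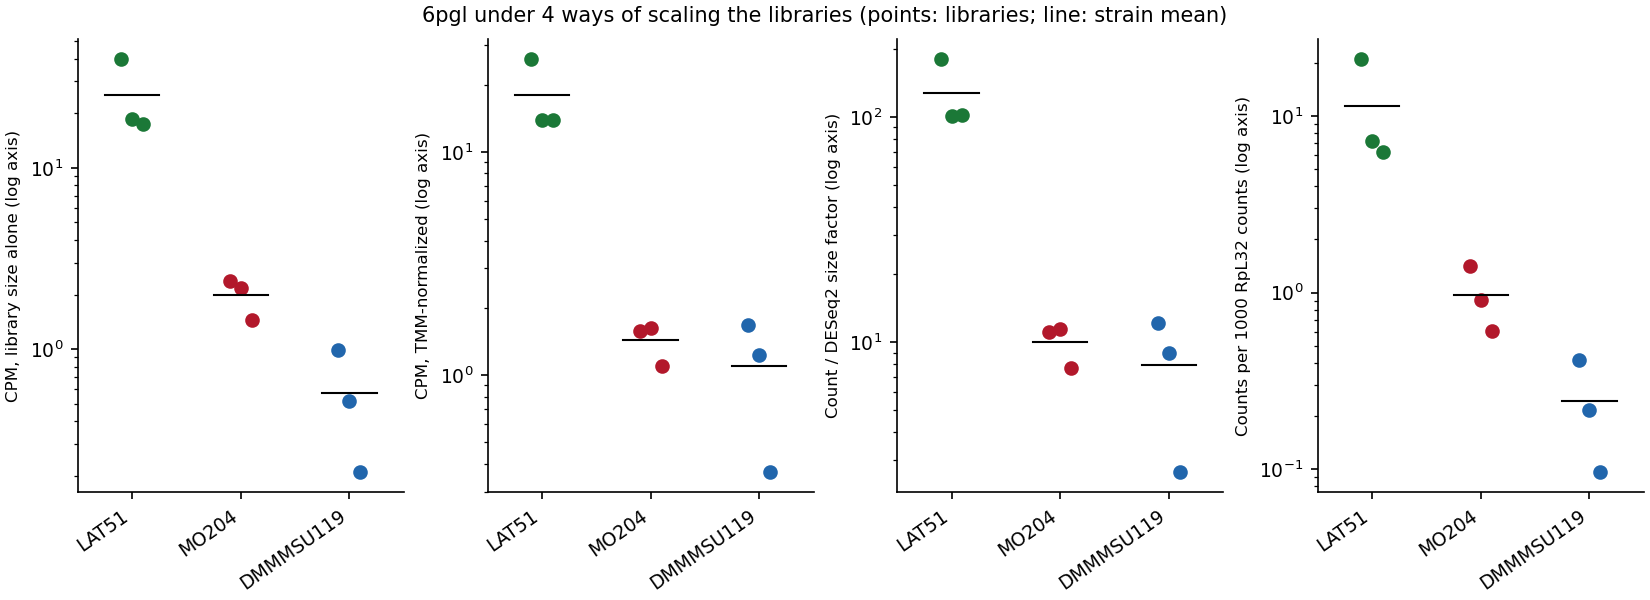
*6pgl* in each library (points) and as strain means (lines) on 4 scales with log axes: CPM by library size alone, TMM-normalized CPM, counts divided by DESeq2 size factors, and counts per 1000 *RpL32* counts. LAT51 lies above both other strains on every scale, while MO204 and DMMMSU119 overlap on the TMM and DESeq2 scales and separate on the other two.

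Marker genes of fat body and muscle differed in level between the libraries. Whether their RNA came from other tissues or from the gland itself was not tested. The 8 fat body markers (storage proteins, vitellogenin and 30K lipoproteins) summed to 13.8 to 145 TMM CPM in LAT51, 61.9 to 695 in MO204 and 3469 to 84814 in DMMMSU119. The 3 muscle markers (the actins *A1* and *A2* and troponin I) summed to 0.968 to 4.39, 23.1 to 547 and 11.1 to 10463 TMM CPM. *A2* was at 0 in all LAT51 libraries, but also in MO204-1, DMMMSU119-2 and DMMMSU119-4. The highest muscle sums rested on single libraries. *A1* had 27557 counts in DMMMSU119-0 against 49 and 35 in the rest of that strain, and 2440 in MO204-3 against 237 and 145. The 2 haemocyte markers, both prophenoloxidases, lay at 5.59 to 14.01, 9.97 to 13.98 and 8.11 to 10.1 TMM CPM, and the 4 cuticle protein genes at 13.5 to 34.9, 6.79 to 66.7 and 14.4 to 335. The lowest fat body and muscle sums were both in LAT51, whose fat body range overlapped that of MO204 and whose muscle range did not. Of the 6 silk gland markers, edgeR called 5 lower in LAT51 than in DMMMSU119 (all genes 19.8%) and 1, sericin 2, higher (all genes 18.2%). There limma called 5 lower and 0 higher. Against MO204, edgeR called 0 of the 6, while DESeq2 and limma each called 1 lower. Against DMMMSU119, edgeR called 7 of the 8 fat body genes lower in LAT51 (all genes 19.8%) and 0 higher, while limma called 7 lower and 1 higher. The eighth, vitellogenin (*VG*), had means of 7.25, 4.22 and 1.01 TMM CPM in LAT51, MO204 and DMMMSU119 and a log2FC of 2.87 against DMMMSU119 (edgeR adjusted p = 0.133). Against MO204, edgeR called 0 of the 8 fat body genes, with 2 at an unadjusted p under 0.05, while DESeq2 called 1 lower and limma 0. The shares of all genes given above are those of edgeR. Against MO204, DESeq2 called 194 of 14124 genes lower in LAT51, and limma 102 of 7610. Against DMMMSU119, limma called 1419 of 7610 genes lower in LAT51 and 1438 higher. The part of other tissues in the difference in *6pgl* was not tested. In whole glands, fewer cells of a type and less RNA per cell cannot be told apart.

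No other gene of the pentose phosphate pathway could be named in the count table by symbol or synonym, so *6pgl* could not be set against the dehydrogenases, transketolase or transaldolase. The metabolic genes that could be named were counted instead. Of 10 sugar handling genes, all tested, edgeR called 0 in LAT51 vs. MO204, where 0 had an unadjusted p under 0.05 and DESeq2 and limma also called 0. The median log2FC was -0.04 for them and -0.01 for all genes, against 3.64 for *6pgl*. In LAT51 vs. DMMMSU119, 4 of the 10 were lower and 0 higher (median -0.81, all genes 0.01), while 19.8% of all genes were lower. In MO204 vs. DMMMSU119 the count was also 4 lower and 0 higher (median -0.78, all genes 0.03), where 16.7% of all genes were lower.

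*Ldh*, lactate dehydrogenase, had 4, 12 and 18 counts in LAT51, 7, 13 and 8 in MO204 and 73, 19 and 316 in DMMMSU119. It was lower in LAT51 than in DMMMSU119 by a log2FC of -4.41 (SE 1.02, edgeR adjusted p = 0.0152) and lower in MO204 by -4.67 (adjusted p = 0.0166). *Glyp*, the glycogen phosphorylase that frees glucose 1-phosphate from glycogen, was also lower in both, with log2FC values of -1.90 (edgeR adjusted p = 0.0407) and -1.76 (adjusted p = 0.0576). Scaled by library size alone, both *Glyp* calls were lost, with log2FC values of -0.55 and -0.43, and leaving out DMMMSU119-0 also lost both, at -1.33 and -1.19. The first call was lost without LAT51-2 as well (-1.48), and the other without MO204-1 (-1.76) or MO204-3 (-1.53) and with no filter on low counts (-1.68, edgeR adjusted p = 0.115). The trehalose transporter *Tret1* was lower in LAT51 than in DMMMSU119 by -1.17 (edgeR adjusted p = 0.0509) and turned to 0.18 by library size alone. That call was lost without LAT51-1 (-1.20), LAT51-2 (-0.82) or DMMMSU119-0 (-0.84), and with no filter on low counts (-1.04, edgeR adjusted p = 0.119). None of these 3 genes was called higher in LAT51 than in either strain.

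Of 25 redox genes, which include glutathione S-transferases, superoxide dismutases, catalase and a peroxiredoxin, 19 were tested. Against MO204, 1 of them was lower in LAT51 (all genes 1.56% by edgeR) and 0 were higher by edgeR, DESeq2 and limma alike, and 2 had an unadjusted edgeR p under 0.05. The lower one was *GSTz2*, which is outside the rule for named genes and was named after its value was seen (log2FC -2.30, edgeR adjusted p = 0.0363). Against DMMMSU119, edgeR called 5 of 19 lower (all genes 19.8%) and 1 higher (all genes 18.2%) in LAT51, with a median of -0.15. There DESeq2 called 4 lower and 0 higher, against 1686 lower and 1150 higher of its 14124 genes. In MO204 vs. DMMMSU119, edgeR called 4 lower (all genes 16.7%) and 2 higher (all genes 16.3%), with a median of -0.23. DESeq2 called 3 lower and 1 higher, against 1435 lower and 951 higher of its 14124 genes. Catalase (*Cat*), which breaks down hydrogen peroxide, was lower than in DMMMSU119 in LAT51 (-2.62, edgeR adjusted p = 0.0157) and in MO204 (-2.73, adjusted p = 0.0174). Without DMMMSU119-0 these values were -1.66 and -1.77, and by library size alone the first was -1.27 and no longer called. *GSTo2* was likewise lower in both, by -1.79 (edgeR adjusted p = 0.00894) and -1.93 (adjusted p = 0.00941), but not with library size alone, where the values were -0.40 and -0.51. *GSTs1* had a log2FC of -6.52 in LAT51 vs. DMMMSU119 (edgeR adjusted p = 0.0266), with 1121 of its counts in the single library DMMMSU119-0, and without that library its value was -3.23. Without LAT51-2 the call was lost at -6.01.

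Both genes of nucleotide synthesis that could be named were higher in LAT51 than in DMMMSU119 (all genes 18.2%). Both were also higher in MO204 than in DMMMSU119 (all genes 16.3%). *RnrS*, the small subunit of ribonucleotide reductase, had log2FC values of 2.20 (edgeR adjusted p = 0.00318) and 2.41 (adjusted p = 0.00327). *Tyms*, thymidylate synthase, had 2.72 (edgeR adjusted p = 0.00253) and 2.57 (adjusted p = 0.00453). In LAT51 vs. MO204 their values were -0.21 and 0.15, and edgeR, DESeq2 and limma called 0 of the 2, with 0 at an unadjusted p under 0.05. *6pgl* was chosen for being high in LAT51 against both strains, so that part of its pattern is no result. Between MO204 and DMMMSU119 it was not called under TMM, on 42 and 13 counts, but was called by library size alone and with ribosomal protein scaling.

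**Figure D4:**
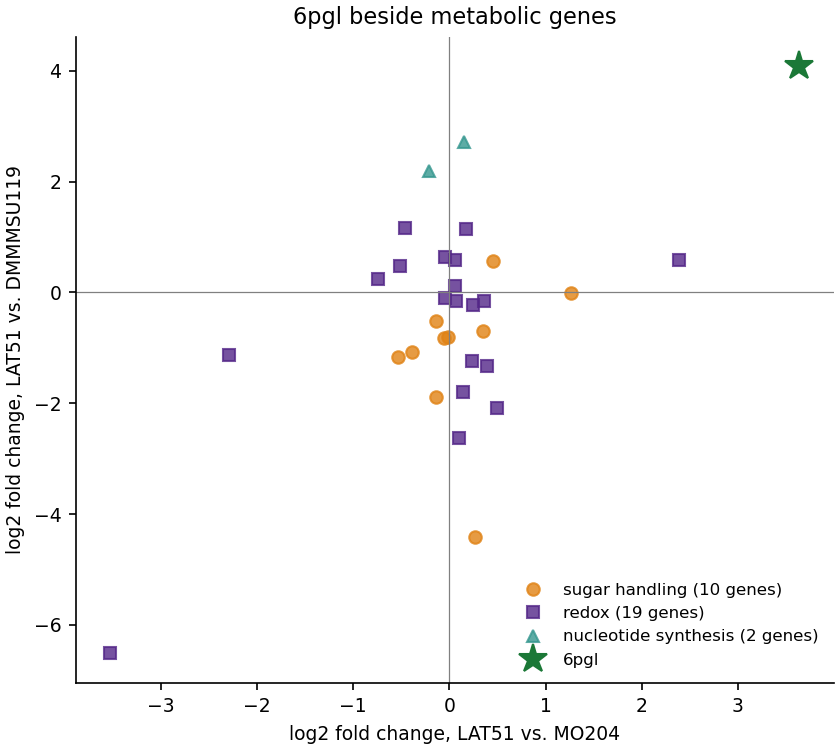
Log2FC in LAT51 vs. MO204 (horizontal) and LAT51 vs. DMMMSU119 (vertical), which share the LAT51 libraries, for *6pgl* and the 10 sugar handling, 19 redox and 2 nucleotide synthesis genes tested. *6pgl* lies at 3.64 and 4.08, and *Tyms* and *RnrS* lie above 2 on the vertical axis only.

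In the gene order of the assembly ASM3026992v2, which is not the assembly the study names for its alignment statistics, no gene overlapped *6pgl*. A long non-coding RNA, LOC134201588, lay next to it on one side, followed by the protein-coding genes LOC101745449, LOC101745309 and LOC101740432. On the other side lay 2 tRNA genes and then LOC101745593, LOC101740566 and *CPR133*, which had at most 2 counts in any library and were not tested. The rule asked for 3 genes on each side; counting protein-coding genes only, which brings in LOC101740432, was decided after the order was seen.

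LOC101740432 had 398, 512 and 125 counts in LAT51, 58, 27 and 28 in MO204 and 19, 38 and 56 in DMMMSU119. Its TMM CPM was 21.9 to 39.7 in LAT51, 3.07 to 4.39 in MO204 and 5.32 to 10.3 in DMMMSU119, so that its LAT51 libraries also lay above all others (all genes 4.2%). It was higher in LAT51 than in MO204 by a log2FC of 3.03 (SE 0.351, edgeR adjusted p = 0.00434) and than in DMMMSU119 by 1.91 (SE 0.338, adjusted p = 0.00556). Of all genes, 0.749% were called higher in LAT51 against both strains. Unlike *6pgl*, it was lower in MO204 than in DMMMSU119 (-1.12, SE 0.345, edgeR adjusted p = 0.0451), although that value became 0.31 by library size alone. The call was also lost without any one of MO204-1, MO204-3, MO204-4, DMMMSU119-2 or DMMMSU119-4, at -1.18 to -0.91, and with no filter on low counts, at -1.01 (edgeR adjusted p = 0.110).

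The genes between them were not called in LAT51 vs. MO204. LOC101745449, the nearest protein-coding gene, had log2FC values of 0.15 in LAT51 vs. MO204 (edgeR adjusted p = 0.933), 1.31 in LAT51 vs. DMMMSU119 (adjusted p = 0.0132) and 1.17 in MO204 vs. DMMMSU119 (adjusted p = 0.0236). LOC101745309 had values of 0.79 (edgeR adjusted p = 0.347), 2.17 (adjusted p = 0.00452) and 1.38 (adjusted p = 0.0270). Its LAT51 libraries, at 13.5 to 27.6 TMM CPM, also lay above all others (all genes 4.2%), of which the highest was MO204-1 at 12.2. Both genes were thus called only in the contrasts with DMMMSU119.

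**Figure D5:**
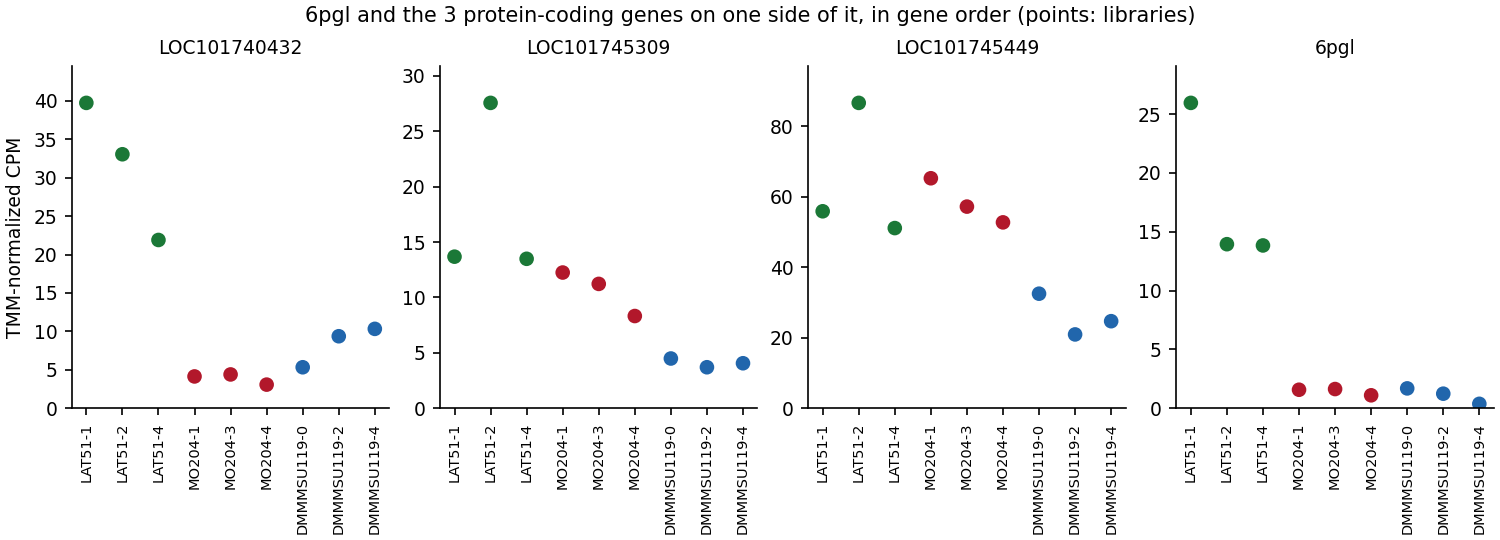
TMM-normalized CPM of *6pgl* and of the 3 protein-coding genes on one side of it, in gene order, for each library (points), with a separate axis from 0 for each gene. *6pgl*, LOC101740432 and LOC101745309 have all LAT51 libraries above the other 6 (all genes 4.2%), by a narrow margin in LOC101745309 (13.5 against 12.2 CPM). In LOC101745449 the LAT51 and MO204 libraries overlap above DMMMSU119.

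Likeness to *6pgl* was measured as Pearson's r of log2 CPM over the 9 libraries, as a description, since the libraries share 3 strains and a gene high in LAT51 alone is alike by that. Of 7609 genes compared, 7 had an r above 0.95 and 29 above 0.9. The most alike were LOC101738187 (r = 0.963), LOC101739033 (0.962), LOC101745800 (0.959), *ae25* (0.958) and LOC101738942 (0.957). By Spearman's rank correlation 0 of these 5 stayed among the top 5, so the choice depends on the measure. LOC101738187 had only 17, 17 and 8 counts in LAT51 and at most 4 in any other library. LOC101739033 had 213, 522 and 228 counts in LAT51 and at most 9 in any other library, and LOC101745800 had 22, 31 and 7 counts in LAT51 and 0 in the other 6. Each of these 3 genes passed the filter on low counts through the LAT51 libraries alone, so nothing is read from their likeness to *6pgl*. *ae25* differed far less, with 233 ± 27.5 TMM CPM in LAT51, 135 ± 18.9 in MO204 and 118 ± 17.1 in DMMMSU119 (SD, n = 3).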

How the data were processed

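Silk gland RNA was made into stranded libraries, 1 per larva. Per the labels, the authors trimmed reads (fastp 0.20.0, Trimmomatic 0.39), aligned them with HISAT2 2.1.0 and counted them per gene with featureCounts 1.4.6-p5. The study names a RefSeq genome older than ASM3026992v2 for its STAR alignment statistics. The build behind the HISAT2 counts and the strand setting are not given in the sources used here, so reads antisense to a gene may be included. The deposited count table holds raw read counts. The deposited log2 values of *6pgl* equal log2 of the count over the DESeq2 size factor, plus 1, within 4.44e-15.

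Counts were filtered with filterByExpr (minimum count 10), scaled with TMM and fitted with edgeR 4.0.16 in R 4.3.3 by a quasi-likelihood model in which each strain had its own mean and the 9 libraries shared the spread. P-values were adjusted by Benjamini-Hochberg over 7610 genes, with a threshold of 0.1. The SE came from the F statistic. Log2 CPM used a prior count of 2. limma 3.58.1 and DESeq2 1.42.0 were alternatives, as were other scalings and filters, a replicate block, and fits lacking single libraries. DESeq2 was fitted to 14124 genes, without the filter on low counts. The ribosomal protein scaling was added after the data were seen. Plots were made with matplotlib 3.10.9. The fits were tested on simulated data.

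The members and lists were chosen with earlier results of these data known. The named genes are *6pgl*, its neighbours, the 5 genes most alike in log2 CPM, and up to 3 genes per metabolic list with the smallest adjusted p in any strain contrast. Lists planned by protein name could not be paired with IDs, since the gene table of ASM3026992v2, which matched 14504 of 16674 IDs, holds symbols and synonyms only. They were rebuilt from symbols, and the results planned for other pentose phosphate genes were not run. Replicates are larvae of 1 strain and site. Chi-square per degree of freedom between libraries of a strain was 49.5 to 218, so no library repeated another. Intervals from counts cover counting error only, since gene counts do not separate PCR duplicates.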

Additional observations from a re-analysis of the deposited data

Results flagged for a closer look

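On the deposited log2 scale, *6pgl* in DMMMSU119-4 had a value of 1.88 and lay far from the other 5 TCMO libraries. The gap to the nearest of them was 0.678 of the whole range, above Dixon's 95% critical value for 6 samples. The value rests on 2 counts. On TMM CPM the same gap was 0.553 of the range and did not pass. Chance flags about 1 in 20 groups.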

How the results depend on the processing

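The log2FC of *6pgl* in LAT51 vs. MO204 stayed within 3.27 to 3.803 over 19 alternatives. Against DMMMSU119 it was 3.63 to 4.55 with single libraries left out, 5.50 by library size alone and 5.47 with ribosomal protein scaling. In MO204 vs. DMMMSU119 it passed the threshold with those 2 scalings (1.86 and 1.94) and reversed to -0.0042 without DMMMSU119-4, and libraries left out gave -0.0042 to 0.91. *Tret1* in LAT51 vs. DMMMSU119 reversed to 0.18 and 0.067 with the same 2 scalings, and LOC101740432 in MO204 vs. DMMMSU119 to 0.31 and 0.39.

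The 234 genes called in LAT51 vs. MO204 became 369 by DESeq2, 99 without a filter, 102 with at least 10 counts in total, and 78 to 307 with libraries left out. The 2891 in LAT51 vs. DMMMSU119 became 5657 by library size, 5122 by ribosomal scaling and 1768 to 3201 with libraries left out. The 2513 in MO204 vs. DMMMSU119 became 5559, 5395 and 1257 to 2823. The 113 in CAR vs. TCMO became 62 by library size, 748 by DESeq2 (20.99% higher, against 47.8%), 45 without a filter, 58 with at least 10 counts and 16 to 130 with libraries left out. These counts come from unlike gene sets. The main fit tested 7610 genes, DESeq2 and the fit without a filter 14124, and the fit with at least 10 counts in total 11129. Fits lacking a library were filtered anew. For DESeq2, the tool and the missing filter therefore cannot be told apart. The cause of these changes was not tested.

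Same-numbered libraries are different larvae, and the main fit did not pair them. Their deviations from the strain means correlated at -0.151 to 0.229. Differently numbered libraries were not set beside these, so a batch shared by number was not tested. With a replicate block the calls were 29, 1843, 506 and 2 in the order above, and *6pgl* in MO204 vs. DMMMSU119 was 0.53. That fit also lost the MO204 vs. DMMMSU119 calls of *Cat*, *Glyp*, *GSTo2*, LOC101740432, LOC101745309 and LOC101745449 (edgeR adjusted p = 0.107 to 0.186). In LAT51 vs. DMMMSU119 it lost *GSTs1* (-3.25, edgeR adjusted p = 0.233) and *Tret1* (-1.11, adjusted p = 0.150). Counts of 2 to 22 in the TCMO libraries limit what can be seen of *6pgl* there. The planned results for other pentose phosphate genes were not run.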

Other observations

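Of the 10 protein-coding genes to each side of *6pgl*, 18 of 20 were in the count table and 8 were tested. In LAT51 vs. MO204, 1 was higher and 1 lower by edgeR (all genes 1.51% and 1.56%). In LAT51 vs. DMMMSU119, 4 were higher and 0 lower (all genes 18.2% and 19.8%), and in MO204 vs. DMMMSU119, 4 were higher and 1 lower (all genes 16.3% and 16.7%). LOC101740432 was the only one of the 8 called higher in LAT51 against both strains (all genes 0.749%). The window was set after the values were seen.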
